A study of Mus musculus with 27 samples.

Results

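The 10 genes described here are homeostatic genes of Müller glia, the radial glial cells that span the whole thickness of the retina. They were taken by symbol, as Glul, Rlbp1, Slc1a3, Aqp4, Kcnj10, Car2, Car14, Dkk3, Abca8a and Apoe, from a table of 40129 genes. All 10 passed the minimum of a mean of 1 normalized read and were among the 27137 genes tested, and each had reads in every mouse. The list was chosen by name, as known markers of the cell type, but with earlier results of these data known, so the counts below are not independent of them.

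Müller glia clear glutamate and turn it into glutamine, move potassium and water between neurons, vessels and vitreous, buffer carbon dioxide and acid, return retinoid to cones and supply lipid. These tasks are carried by a few abundant proteins, which is why their transcripts are used as markers of the cell type in the mature retina. When the retina is injured or ischemic, Müller glia are known to become reactive and to make intermediate filaments such as GFAP and vimentin.

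Retinas came from C57BL/6 wild-type (WT) mice (C57BL/6J in the study's methods), male and female pups, of the oxygen-induced retinopathy (OIR) model. OIR pups spent part of the second postnatal week in hyperoxia, which closes central retinal vessels, were then returned to room air and were killed at postnatal day 14 (p14) or 17 (p17). The nOIR pups stayed in room air throughout and were killed at the same ages. Each library held the whole retina of 1 mouse, from 1 eye or from both, after perfusion with buffer, and 26 mice were compared. At p14 there were 6 nOIR and 6 OIR mice, and at p17 6 nOIR and 8 OIR mice. A further nOIR p14 mouse, S4, was left out as in the study, which found lens genes in it. Totals of recovered reads ranged from 17029536, in OIR p17 replicate 1, to 33593428 per mouse, and the next lowest total was 24641221. Mice of a group came from a few litters, and which litter each mouse came from was not given in the sources used here, so all p-values take mice as independent.

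Whole retina was sequenced, so fewer Müller glia and less RNA per Müller cell cannot be told apart. Most members are also made by other cells that a retina preparation can hold. Astrocytes express Slc1a3, Aqp4, Glul and Apoe, microglia express Apoe, the retinal pigment epithelium (RPE) expresses Rlbp1 and Car14, and some neurons express Dkk3 and Car2. The values below are normalized reads, that is, read counts divided by 1 size factor per mouse. Fold changes are differences between group means of log2(normalized reads + 1), given with their standard error (SE), and a gene was called at an adjusted p under 0.05 (limma, Benjamini-Hochberg adjustment over all genes tested).

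Promoter sequence of 7 of the 10 members was matched by symbol in a RefSeq table (assembly GRCm38.p6). The 250 bases before the start of transcription are shown for 4 of them as examples, Abca8a, Kcnj10 and Rlbp1 of the members lower in OIR mice at both ages and Car14 of those called at neither. They lie at chr11:110095938-110096187, minus strand (Abca8a), chr1:172340960-172341209, plus strand (Kcnj10), chr7:79387028-79387277, minus strand (Rlbp1) and chr3:95904686-95904935, minus strand (Car14), and each is written 5′ to 3′ in the direction of its gene. Capitals mark the letters ACGTG, the core that hypoxia-inducible factors bind, CACGTG, an E-box that contains ACGTG on either strand, GTGGGAA, the core bound by RBPJ of the Notch pathway, and ACAAT, a core bound by SOX proteins. All were searched on both strands.
Abca8a: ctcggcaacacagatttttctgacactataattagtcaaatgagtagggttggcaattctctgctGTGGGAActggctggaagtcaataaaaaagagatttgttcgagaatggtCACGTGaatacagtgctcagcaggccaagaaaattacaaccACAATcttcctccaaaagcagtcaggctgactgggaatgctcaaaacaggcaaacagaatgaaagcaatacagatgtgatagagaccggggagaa
Kcnj10: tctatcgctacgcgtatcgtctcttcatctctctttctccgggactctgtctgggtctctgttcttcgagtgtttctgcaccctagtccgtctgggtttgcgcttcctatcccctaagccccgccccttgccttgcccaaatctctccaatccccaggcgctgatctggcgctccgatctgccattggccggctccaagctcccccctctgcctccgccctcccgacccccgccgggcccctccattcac
Rlbp1: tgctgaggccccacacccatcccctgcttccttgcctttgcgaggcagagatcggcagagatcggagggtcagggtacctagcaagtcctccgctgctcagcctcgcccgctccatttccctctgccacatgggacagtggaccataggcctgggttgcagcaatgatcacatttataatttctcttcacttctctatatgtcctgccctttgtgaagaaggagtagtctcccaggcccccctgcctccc
Car14: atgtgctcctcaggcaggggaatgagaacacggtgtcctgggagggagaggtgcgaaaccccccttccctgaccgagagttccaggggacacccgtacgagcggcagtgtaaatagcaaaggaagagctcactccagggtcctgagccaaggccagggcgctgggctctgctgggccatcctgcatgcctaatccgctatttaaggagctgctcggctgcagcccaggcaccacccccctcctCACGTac
The Abca8a promoter held CACGTG, the RBPJ core and the SOX core, and that of Car14 held ACGTG close to the start. None of the 4 motifs was in the Kcnj10 or Rlbp1 window. Of all 32851 promoters of this length in the table, 16.6% held ACGTG, 6.02% the E-box CACGTG, 5.42% the RBPJ core and 27.7% the SOX core. Of the other 3 matched members, Glul held none of the motifs, Slc1a3 held the SOX core, and so did 1 of the 3 promoters listed for Apoe. A match describes the letters only.

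Levels can be compared between genes once divided by length, for which the merged exons of GENCODE M21 were used. In nOIR p14 mice, Apoe had the highest level of the 10, with 11225 ± 1194 normalized reads per kilobase of exon (SD, n = 6). Car2 followed with 9516 ± 1392, Rlbp1 with 6608 ± 713, Dkk3 with 5989 ± 560 and Glul with 4265 ± 695 (SD, n = 6 each). Slc1a3 with 1350 ± 124 and Car14 with 1250 ± 75.2 stood lower, and Abca8a with 595 ± 52.8, Aqp4 with 468 ± 50.9 and Kcnj10 with 64.2 ± 17.4 lower still. Within this order the neighbours Apoe and Car2, Rlbp1 and Dkk3, and Slc1a3 and Car14 differed by no more than the sum of their SDs. The channel gene Kcnj10 was thus the least abundant member, with at most 501 normalized reads in any mouse.

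The question of the comparison at p14 was how the ischemic retina before neovascularization differs from its controls, and at p17 how the retina with neovascularization does. At p14, 6 of the 10 members were lower in OIR mice and 0 were higher. Among all genes tested, 2.91% were called lower and 3.18% higher at that age. At p17, 7 members were lower and 0 higher, against 5.12% lower and 7.39% higher of all genes. The count of 0 higher comes from limma, and edgeR and DESeq2 also gave 0 at both ages. At an unadjusted p under 0.05, 7 members at p14 and 8 at p17 differed, of which the 1 on the higher side was Slc1a3 at p17. The share of all genes at this unadjusted threshold was not counted, and the shares above do not apply to it. The median log2 fold change of the members was -0.57 at p14 and -0.46 at p17, where the median of all genes was 0.02 and -0.02. No member passed the study's stricter threshold of a log2 fold change above 2 or below -2. In 3 members at each age every OIR mouse lay below every control, which held for 1.86% of all genes at p14 and 1.98% at p17.

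**Figure D1:**
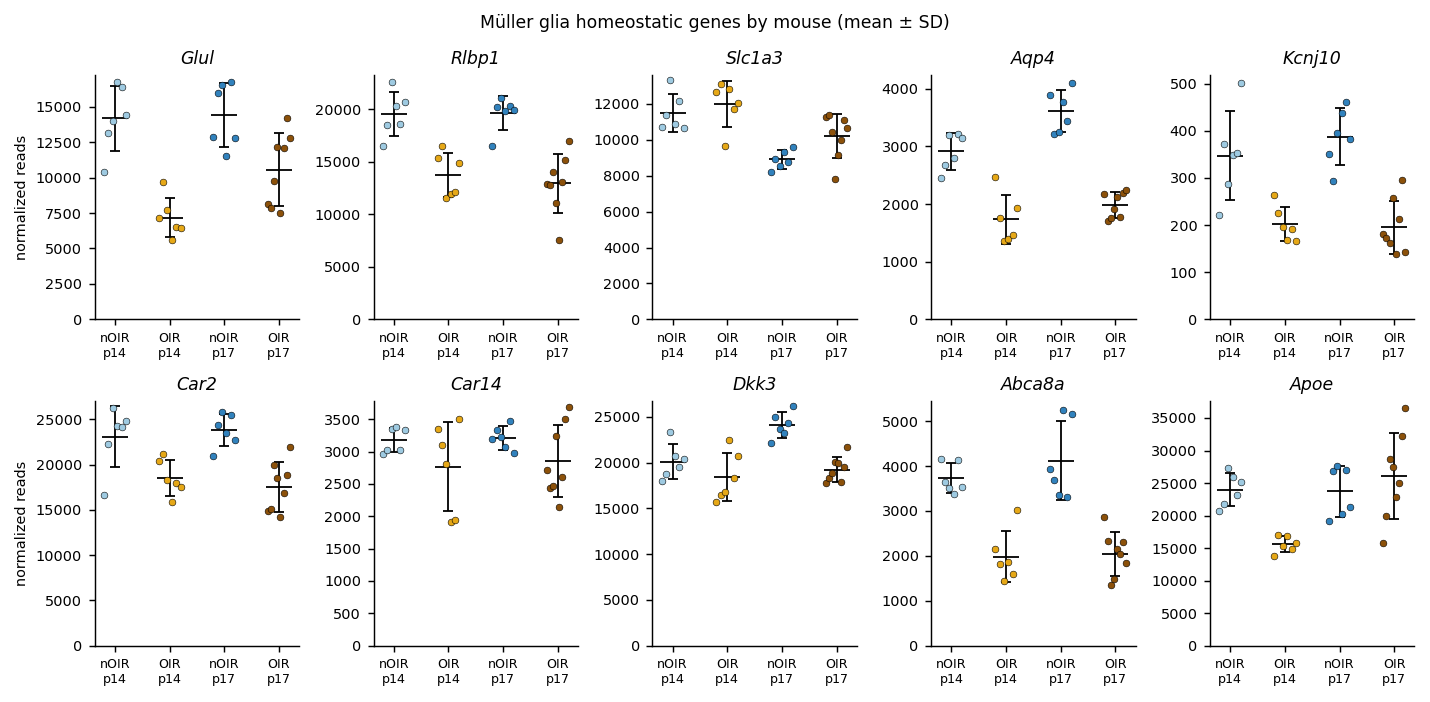
Normalized reads (vertical axes, from 0) of the 10 members in each of 26 mice, by group, with the mean and SD as black lines. The OIR points of Abca8a lie below all control points of the same age at p14 and at p17, and those of Slc1a3 do not separate from the controls in that direction.

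Of the members of the glutamate cycle, Glul was lower at both ages and Slc1a3 was called at neither. Glul encodes glutamine synthetase, which makes glutamine from the glutamate and ammonia that Müller glia take up. In nOIR p14 mice it had a lowest value of 10388, a median of 14213 and a highest of 16708 normalized reads. The OIR p14 mice had 5616, 6822 and 9656. All 6 OIR p14 mice were below all 6 controls. Glul fell by 0.98 on the log2 scale (SE 0.15, adjusted p = 8.21e-05), a change of -49.5% (95% interval -59.4 to -37.1%).

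At p17 the controls had a lowest Glul value of 11527, a median of 14405 and a highest of 16705 normalized reads, and the OIR mice 7521, 10921 and 14188. The groups overlapped, with 4 of the 8 OIR mice below all controls. Its log2 fold change of -0.47 (SE 0.14, adjusted p = 0.0275) was called, and 11 of 40 alternative settings lost this call. They included leaving out nOIR p17 replicate 2, 3 or 5 (adjusted p = 0.0688, 0.0730 and 0.0759) and OIR p17 replicate 1, 2 or 5 (0.0529, 0.0602 and 0.0609).

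Slc1a3 encodes GLAST, the transporter through which Müller glia take up glutamate. Its normalized reads ranged from 10638 (median 11126) to 13363 in nOIR p14 mice and from 9652 (median 12349) to 13128 in OIR p14 mice. At p17 they ranged from 8215 (median 8877) to 9611 in controls and from 7809 (median 10551) to 11412 in OIR mice. The groups overlapped at both ages, although 6 of 8 OIR p17 mice were above all controls and 1 was below all of them. The log2 fold change was 0.06 (SE 0.09, adjusted p = 0.844) at p14 and 0.19 (SE 0.08, adjusted p = 0.156) at p17. The 95% intervals, from -8.46 to 18.2% at p14 and from 1.29 to 28.6% at p17, exclude a decrease of the size seen in Glul. Without OIR p17 replicate 4, the mouse with the lowest value, Slc1a3 was called higher at p17 (log2 fold change 0.25, adjusted p = 0.0332), as it was after scaling each mouse to the same total (0.26, adjusted p = 0.0234) or quantile normalization (0.29, adjusted p = 0.0080).

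Of 5 other genes of glutamate and glutamine handling, 1 was lower at each age and none was higher. Slc38a5, a glutamine transporter, had a log2 fold change of -0.81 at p14 (SE 0.24, adjusted p = 0.0411), a call that 12 of 40 settings lost. Glud1, which encodes glutamate dehydrogenase, had -0.46 at p17 (SE 0.14, adjusted p = 0.0267), and 10 of 40 settings lost that call, while 1, with microglia markers as a covariate, turned its sign. Slc1a1, Slc1a2 and Slc38a3 were not called at either age.

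Both members for water and potassium were lower in OIR mice at both ages. Aqp4 encodes aquaporin-4, the water channel of Müller endfeet. It ranged from 2459 (median 2968) to 3214 normalized reads in nOIR p14 mice and from 1361 (median 1611) to 2476 in OIR p14 mice. At p14 only 1 OIR mouse reached the range of the controls. At p17, controls ranged from 3218 (median 3600) to 4107 and OIR mice from 1703 (median 2017) to 2244, so that the highest OIR mouse was well below the lowest control. Aqp4 fell by 0.78 on the log2 scale at p14 (SE 0.12, adjusted p = 6.02e-05) and by 0.86 at p17 (SE 0.11, adjusted p = 1.03e-06). The exact permutation test of the p17 difference, two-sided, gave p = 0.000333, the smallest that 8 mice against 6 allow.

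Kcnj10 encodes Kir4.1, the inward rectifier through which Müller glia shunt potassium. Controls ranged from 221 (median 351) to 501 normalized reads at p14 and OIR mice from 167 (median 195) to 263. At p17 the ranges were 294 (median 390) to 462 and 138 (median 177) to 296. In each case the groups just overlapped, with 4 of 6 OIR p14 and 7 of 8 OIR p17 mice below all controls. Kcnj10 fell by 0.75 on the log2 scale at p14 (SE 0.19, adjusted p = 0.0122) and by 1.02 at p17 (SE 0.18, adjusted p = 9.39e-05). At the later age this was a change of -50.6% (95% interval -61.5 to -36.6%).

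The dystrophin complex anchors both channels at the endfeet, and 10 other genes of that complex or of water and potassium transport were examined. At p14, 1 of these was lower and none was higher, and at p17, 3 were lower and 2 higher. Mlc1, a membrane protein of astroglial endfeet, was lower at both ages, with log2 fold changes of -0.53 (SE 0.11, adjusted p = 0.0014) and -0.44 (SE 0.10, adjusted p = 0.0022). Hepacam, an adhesion protein that binds the product of Mlc1, had -1.12 at p17 (SE 0.26, adjusted p = 0.0029), with 143 to 189 normalized reads in controls and 51.9 to 120 in OIR mice. Of the anchoring complex, Utrn (utrophin) had -0.35 at p17 (adjusted p = 0.0248) and Dag1 (dystroglycan) 0.35 (adjusted p = 0.0173), while Dmd and Dtna were not called at either age. The Utrn call was lost in 8 of 40 settings, and the Dag1 call in 3, among them without nOIR p17 replicate 1 (log2 fold change 0.31). Aqp1, another water channel, was higher at p17, with 0.68 (SE 0.17, adjusted p = 0.0060).

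Of the pair of carbonic anhydrases, enzymes that interconvert carbon dioxide and bicarbonate, only Car2 was called, and only at p17. Car2 is the cytosolic enzyme and Car14 a membrane enzyme facing outwards. Car2 ranged from 16686 (median 24149) to 26222 normalized reads in nOIR p14 mice and from 15867 (median 18103) to 21185 in OIR p14 mice. The lowest control, nOIR p14 replicate 1, was below 5 of the 6 OIR mice, and the next lowest control was above all of them. The log2 fold change was -0.31 (SE 0.11, adjusted p = 0.102), and without that control it was -0.40 and called (adjusted p = 0.0145). At p17, Car2 ranged from 20960 (median 23930) to 25832 in controls and from 14252 (median 17651) to 21886 in OIR mice, of which 7 of 8 were below all controls. The log2 fold change was -0.45 (SE 0.10, adjusted p = 0.0020). Whether the effect of OIR on Car2 differed between the ages was tested in the same fit, and the difference was -0.15 (SE 0.15, adjusted p = 0.791).

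Car14 spread more among OIR mice than among controls. It ranged from 2960 (median 3181) to 3379 normalized reads in nOIR p14 mice and from 1918 (median 2955) to 3497 in OIR p14 mice. At p17 it ranged from 2971 (median 3205) to 3471 in controls and from 2145 (median 2663) to 3695 in OIR mice. OIR mice thus lay on both sides of the controls, with 5 of 8 below all of them and 2 of 8 above at p17. The log2 fold changes of -0.24 at p14 (SE 0.14, adjusted p = 0.402) and -0.19 at p17 (SE 0.13, adjusted p = 0.409) were not called, and their 95% intervals ran from -30.0 to 2.82% and from -26.8 to 4.88%.

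Among 10 other carbonic anhydrases and acid transporters, 2 were higher and 2 lower at each age. Car9, a carbonic anhydrase known to be induced by hypoxia, had at most 1.75 normalized reads in any nOIR p14 mouse and from 10.2 to 31.4 in OIR p14 mice. At p17 it had at most 3.84 in controls and from 27.8 to 59.9 in OIR mice (adjusted p = 1.34e-07 at p14 and 1.04e-10 at p17). The lactate transporters moved in opposite directions. Slc16a1 (MCT1) had log2 fold changes of -0.47 (SE 0.10, adjusted p = 0.0032) and -0.32 (SE 0.10, adjusted p = 0.0203), and Slc16a3 (MCT4) of 0.86 (SE 0.19, adjusted p = 0.0046) and 1.25 (SE 0.18, adjusted p = 6.49e-06). The p17 call of Slc16a1 was lost in 6 of 40 settings. Car4, an enzyme anchored to the membrane, was lower at p14 (-1.34, adjusted p = 0.0461), but 20 of 40 settings lost that call. Slc4a3, a chloride and bicarbonate exchanger, was lower at p17 (-0.50, SE 0.13, adjusted p = 0.0105).

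Rlbp1 encodes CRALBP, which binds retinal and retinol in Müller glia and in the RPE. It ranged from 16472 (median 19462) to 22537 normalized reads in nOIR p14 mice and from 11573 (median 13477) to 16495 in OIR p14 mice. At p17 it ranged from 16454 (median 20030) to 21034 in controls and from 7595 (median 12996) to 16946 in OIR mice. At each age only the highest OIR mouse reached the lowest control. Rlbp1 fell by 0.52 on the log2 scale at p14 (SE 0.13, adjusted p = 0.0148) and by 0.63 at p17 (SE 0.12, adjusted p = 0.0005). The lowest of all 26 values, 7595, was that of OIR p17 replicate 5, which also had the lowest Glul, Kcnj10, Car2 and Car14 of its group.

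RPE that stays on the retina brings Rlbp1 reads of its own. The summed reads of 7 RPE markers (Rpe65, Lrat, Best1, Ttr, Rgr, Mlana and Tyr) ranged from 1857 to 8501 in nOIR p14 mice, from 3161 to 4097 in OIR p14 mice, from 1099 to 7680 in nOIR p17 mice and from 2011 to 6430 in OIR p17 mice. None of the 7 was called at either age, and none was at 0 in all mice of a group. With the log2 sum as a covariate, Rlbp1 had log2 fold changes of -0.47 (adjusted p = 0.0106) and -0.60 (adjusted p = 0.0002). Of 5 other genes of retinoid handling, 1 was called at p14, Rdh10, a retinol dehydrogenase, which rose by 0.49 (SE 0.12, adjusted p = 0.0090) and was not called at p17. Rgr stands both in this list and in the RPE sum, and whether its reads came from RPE alone was not tested.

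The lipid genes Abca8a and Apoe differed in how they stood at p17. Abca8a encodes a transporter of the ABC family and is read here with 1 limit, since its close paralogs lie beside it in the genome and can share short reads with it. It ranged from 3385 (median 3594) to 4149 normalized reads in nOIR p14 mice and from 1451 (median 1842) to 3032 in OIR p14 mice. At p17, controls ranged from 3309 (median 3819) to 5258 and OIR mice from 1348 (median 2102) to 2865. The groups did not overlap at either age. Abca8a fell by 0.95 on the log2 scale at p14 (SE 0.17, adjusted p = 0.0003) and by 1.02 at p17 (SE 0.15, adjusted p = 1.45e-05), which is a change of -50.6% at the later age (95% interval -60.3 to -38.5%). Its paralog Abca8b was not called, with 0.18 at p14 (SE 0.16, adjusted p = 0.656) and -0.02 at p17 (SE 0.15, adjusted p = 0.967).

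Apoe encodes apolipoprotein E, the main lipid carrier that glia secrete in neural tissue. It ranged from 20704 (median 24113) to 27319 normalized reads in nOIR p14 mice and from 13853 (median 15546) to 16989 in OIR p14 mice, so that all OIR p14 mice were below all controls. At p17, controls ranged from 19169 (median 24078) to 27689 and OIR mice from 15785 (median 26208) to 36504. OIR p17 mice thus spread to both sides, with 1 of 8 below all controls and 3 of 8 above all of them. The log2 fold change was -0.62 at p14 (SE 0.14, adjusted p = 0.0061) and 0.11 at p17 (SE 0.13, adjusted p = 0.710).

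The summed reads of 7 microglia and macrophage markers (Cx3cr1, P2ry12, Tmem119, Csf1r, C1qa, Aif1 and Cd68) are given beside Apoe, since these cells also make it. They ranged from 1253 to 1678 in nOIR p14 mice and from 1411 to 2147 in OIR p14 mice. At p17 they ranged from 1026 to 1192 in controls and from 1991 to 3535 in OIR mice, without overlap. Of the 7 markers, 2 were higher at p14 and 5 at p17, among them C1qa with log2 fold changes of 0.74 and 2.05 and Cd68 with 1.29 and 2.60. None was called lower at either age. P2ry12 had a mean of 221 normalized reads in nOIR p14 and 137 in OIR p14 mice, and of 201 and 208 at p17. Tmem119 had 63.5 and 56.3 at p14, and 64.8 and 109 at p17. Among OIR p17 mice, replicate 1 had both the lowest sum and the lowest Apoe, and replicate 8 both the highest sum and the highest Apoe. That replicate 1 was also the library with the fewest reads of all mice, 17029536. In nOIR p14 mice, replicate 3 had the highest of both (1678 and 27319). In nOIR p17 mice, replicate 5 had the lowest sum (1026) with 27043 reads of Apoe, and replicate 6 the highest sum (1192) with 21252. In OIR p14 mice, replicate 1 had the lowest Apoe (13853) at a sum of 1889. With the log2 sum as a covariate, which was chosen after seeing the data, the Apoe log2 fold change was -0.85 at p14 (adjusted p = 0.0001) and -1.01 at p17 (adjusted p = 0.115). Since the sums of the p17 groups do not overlap, that covariate and OIR can hardly be told apart at p17, where calls of lower genes over the whole table fell from 1390 to 94 with it and the 7 lower members to 0. The log2 fold changes of these 7 then lay between -1.16 (Aqp4) and -0.67 (Abca8a), with adjusted p from 0.0685 to 0.464, farther from 0 than without the covariate in 5 and closer in Kcnj10 and Abca8a. The median of the 10 members was -0.93.

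**Figure D2:**
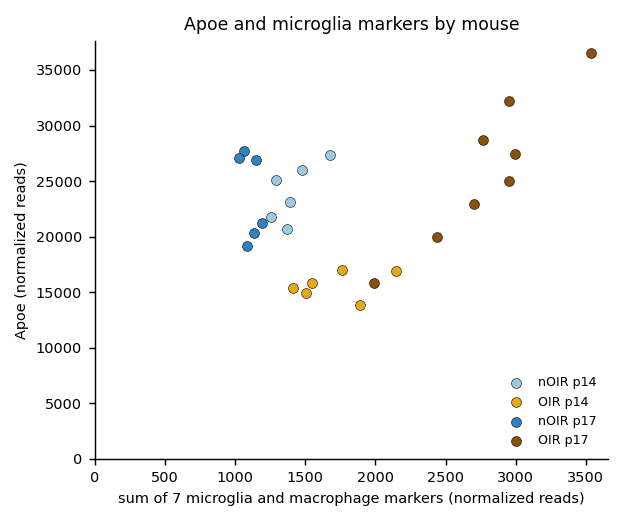
Normalized reads of Apoe (vertical axis) against the summed normalized reads of 7 microglia and macrophage markers (horizontal axis) in 26 mice, coloured by group. The 8 OIR p17 mice stand to the right of all p17 controls, from 1991 to 3535, and span 15785 to 36504 reads of Apoe.

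Of 9 other genes of lipid transport, 1 was higher and 1 lower at p14. Abca1, the cholesterol exporter that loads apolipoprotein E with lipid, rose by 1.25 at p14 (SE 0.24, adjusted p = 0.0009). Apod, a small lipid carrier, fell by 1.16 on the log2 scale at p14 (SE 0.22, adjusted p = 0.0011). Neither was called at p17.

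Dkk3 encodes a secreted glycoprotein related to the Dickkopf inhibitors of Wnt signalling and was, like Car2, called at p17 and not at p14. It ranged from 17962 (median 19957) to 23332 normalized reads in nOIR p14 mice and from 15737 (median 17590) to 22515 in OIR p14 mice, where the groups overlapped. At p17, controls ranged from 22131 (median 24001) to 26227 and OIR mice from 17762 (median 19168) to 21686, without overlap. The log2 fold change was -0.13 at p14 (SE 0.08, adjusted p = 0.471) and -0.32 at p17 (SE 0.08, adjusted p = 0.0044). The difference between the ages was -0.19 (SE 0.12, adjusted p = 0.591). After quantile normalization the p17 value was -0.21 (adjusted p = 0.0507). Of 6 Dickkopf relatives and their Kremen receptors, 5 could be tested, none was called at p14, and 2 were higher at p17, Dkk2 by 2.02 (SE 0.42, adjusted p = 0.0009) and Kremen1 by 0.70 (SE 0.18, adjusted p = 0.0062).

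**Figure D3:**
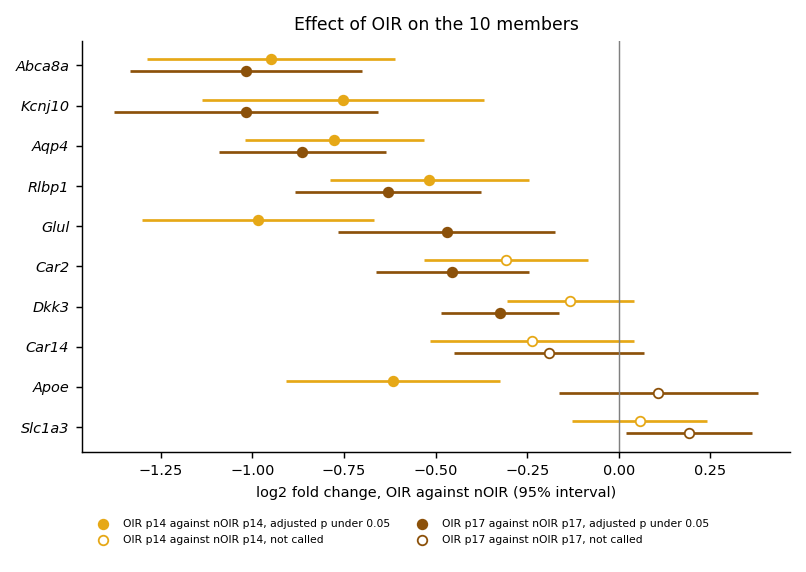
Log2 fold change of each member in OIR against nOIR mice (horizontal axis), with 95% intervals from limma, at p14 (yellow) and p17 (brown). Filled points had an adjusted p under 0.05, and all 13 of these lie below 0, from -1.02 to -0.32.

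Age was compared within controls first. Between nOIR p17 and nOIR p14 mice limma called 0 of 10 members, with 0.158% of all genes called lower and 0.158% higher. At an unadjusted p under 0.05, 3 members differed, and edgeR called 0 and DESeq2 called 1 of the 10. That member was Slc1a3, with a log2 fold change of -0.37 (SE 0.09, adjusted p = 0.0732 by limma and 0.00999 by DESeq2). All 6 nOIR p17 mice were below all 6 nOIR p14 mice in Slc1a3, and the exact permutation test, two-sided, gave p = 0.0022, the smallest that 6 mice against 6 allow. Aqp4 was the converse, with every nOIR p17 mouse above every nOIR p14 mouse and a log2 fold change of 0.31 (SE 0.12, adjusted p = 0.442). Dkk3 had 0.26 (SE 0.08, adjusted p = 0.262), with 4 of 6 nOIR p17 mice above all nOIR p14 mice. For these ages, the shares of all genes without overlap and of all genes at the unadjusted threshold were not counted. The separation of single members therefore has no background to be set against.

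Between OIR p17 and OIR p14 mice, 2 members were higher and 0 lower, against 4.11% of all genes called higher and 1.81% lower. Apoe rose by 0.70 (SE 0.13, adjusted p = 0.0010), with 7 of 8 OIR p17 mice above all OIR p14 mice. Glul rose by 0.54 (SE 0.14, adjusted p = 0.0203), a change of 45.3% (95% interval 18.4 to 78.3%). The Glul call was lost without OIR p14 replicate 4 (adjusted p = 0.0616) or 6 (adjusted p = 0.0508) and with the replicate block (adjusted p = 0.0958). With the microglia marker sum as a covariate, Apoe had 0.10 (adjusted p = 0.845) and Glul 0.23 (adjusted p = 0.699). The other 8 members had log2 fold changes between -0.23 and 0.22 over this interval.

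Whether the effect of OIR differed between the ages was tested as the difference of both effects. Limma called 0 of 10 members, where 0.147% of all genes had a more negative and 1.43% a more positive effect at p17. At an unadjusted p under 0.05, 2 members differed, Glul with 0.51 (SE 0.21, adjusted p = 0.335) and Apoe with 0.72 (SE 0.19, adjusted p = 0.0530). The share of all genes at that unadjusted threshold was not counted. For Apoe the adjusted p was 0.0365 by edgeR and 0.0106 by DESeq2, which each called 1 member. Over all alternatives it lay between 0.0050, without OIR p17 replicate 1, and 0.859, with the microglia marker sum as a covariate. For Aqp4, Kcnj10, Rlbp1 and Abca8a the difference was between -0.27 and -0.07, with intervals that reach from -0.79 to 0.39. Differences within those intervals remain possible.

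Other genes that mark Müller glia were called in both directions, whereas those of the reactive state were called higher. Of 12 transcription factors and further markers of Müller glia, 1 was higher and 1 lower at p14, and 3 were higher and 2 lower at p17. These 12 had a median of -0.14 (p14) and -0.35 (p17) on the log2 scale, on the same side of 0 as the members. Spc25, a kinetochore gene whose transcript is abundant in Müller glia, fell from 4956 ± 967 to 1803 ± 367 normalized reads at p14 (SD, n = 6 each) and from 6833 ± 579 (SD, n = 6) to 2090 ± 502 (SD, n = 8) at p17. Its log2 fold change was -1.46 (SE 0.16, adjusted p = 3.31e-07) and -1.74 (SE 0.15, adjusted p = 5.48e-10). Gpr37, a receptor of glia, fell by 0.49 on the log2 scale at p17 (SE 0.09, adjusted p = 0.0001).

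Crym, a thyroid hormone binding protein, rose by 1.24 (SE 0.18, adjusted p = 3.53e-05) and 1.13 (SE 0.17, adjusted p = 1.32e-05). Sox9, a transcription factor of Müller glia, rose by 0.98 at p17 (SE 0.15, adjusted p = 2.46e-05), and Nfib, another, by 0.37 (SE 0.09, adjusted p = 0.0028). Sox2, Sox8, Lhx2, Hes1, Hes5, Nfia and Nfix were not called at either age. All 12 listed genes of reactive gliosis were higher at both ages. Vim, for vimentin, rose from 3301 ± 256 to 7345 ± 1175 normalized reads at p14 (SD, n = 6 each). On the log2 scale it rose by 1.14 at p14 (SE 0.12, adjusted p = 1.34e-07) and by 1.46 at p17 (SE 0.11, adjusted p = 5.56e-11).

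**Figure D4:**
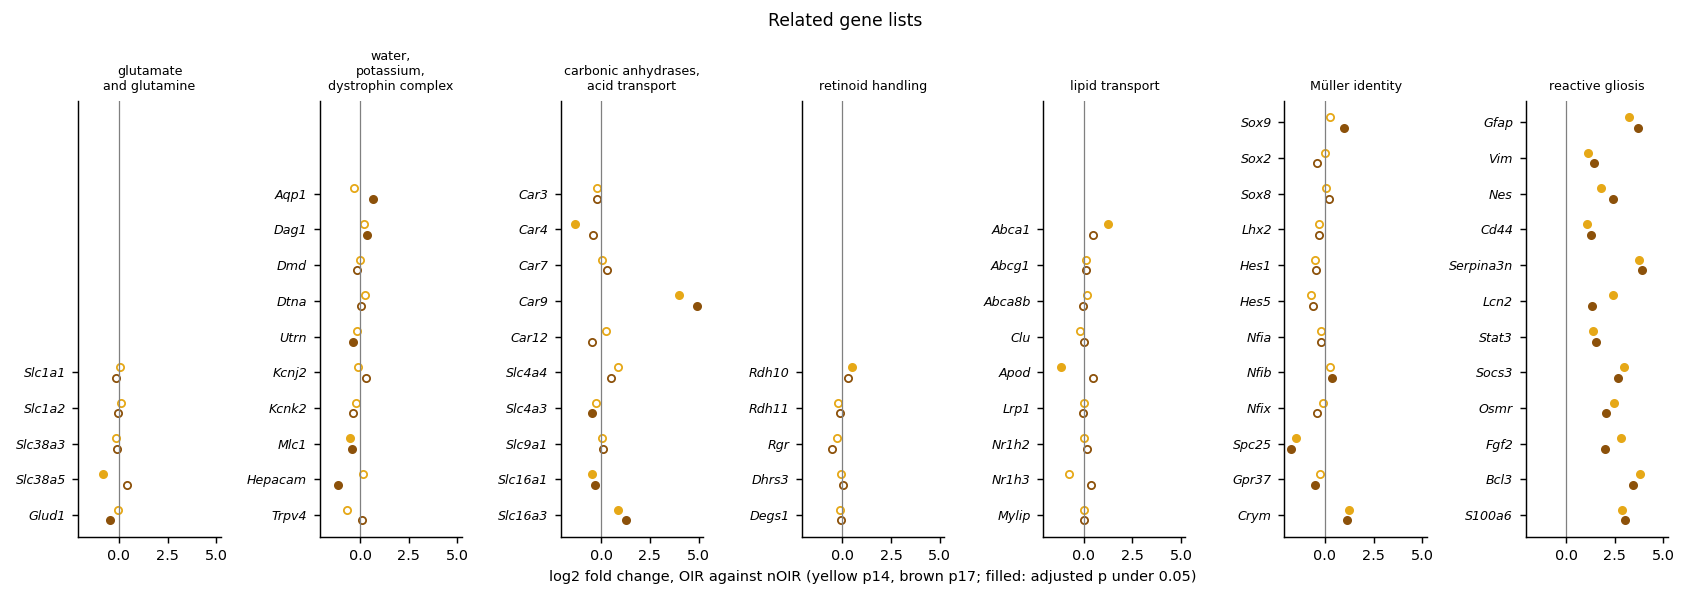
Log2 fold change in OIR against nOIR mice (horizontal axes) of single genes of 7 related lists at p14 (yellow) and p17 (brown), with filled points for an adjusted p under 0.05. All 12 genes of reactive gliosis lie to the right of 0 at both ages, whereas the other lists lie on both sides.

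Markers of other cells moved at the same time. The summed reads of 6 astrocyte markers, Gfap among them, ranged from 1690 to 2657 in nOIR p14 mice and from 4084 to 10861 in OIR p14 mice, and from 1827 to 2444 and from 4292 to 11766 at p17. Most of that difference was Gfap, which reactive Müller glia also make and which is also in the gliosis list. Without it the sums ranged from 1180 to 1968 and from 1681 to 3636 at p14, with overlap, and from 1445 to 1807 and from 1977 to 3637 at p17, without overlap. Of these 6, 3 were called higher at p14 and 5 at p17, and none was called lower. S100b, which was in the sums, went the other way at p14. It ranged from 261 to 380 normalized reads in nOIR p14 mice and from 158 to 247 in OIR p14 mice. At p17 it ranged from 310 to 429 in controls and from 197 to 629 in OIR mice. Those of 5 amacrine cell markers ranged from 22844 to 27413 in nOIR p14 mice and from 18647 to 20932 in OIR p14 mice, and from 25505 to 27757 and from 17286 to 20945 at p17. Of these 5, 3 were lower at each age, for example Slc6a9, a glycine transporter, with -0.54 (SE 0.10, adjusted p = 0.0007) and -0.79 (SE 0.09, adjusted p = 1.99e-07). Lower calls were also made for 2 and 3 of 5 ganglion cell markers, for 1 and 5 of 6 bipolar cell markers and for 2 and 3 of 7 rod markers at p14 and p17. Of 6 endothelial markers, 1 was higher and 1 lower at p14 and 5 were higher at p17, of 5 pericyte markers 3 were lower at p14 and 5 higher at p17, and of 5 red cell markers none was called at p14 and 5 were higher at p17. Of 5 lens markers none was called at either age. With Cryaa, a lens crystallin, as a covariate, the same members were called at both ages. What part the neurons, astrocytes, vessels and red cells had in the values of the members was not tested.

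Among mice of the same group, several members were high or low together. After the mean of each group was removed, 31 of the 45 pairs of members had a positive Pearson r over the 26 mice. The strongest was that of Glul and Car2, with r = 0.79 (permutation p = 4e-05, adjusted p = 0.0011 over 45 pairs) and Spearman's rho = 0.74 (permutation p = 0.0003, adjusted p = 0.0031). It was 0.77 without the 2 mice farthest from the median, and 0.83, 0.87, 0.75 and 0.78 in the 4 groups (nOIR and OIR at p14, then nOIR and OIR at p17). Rlbp1 and Car2 had r = 0.72 and rho = 0.77 (permutation p = 5e-05 for each, adjusted p = 0.0011 and 0.0022), 0.65 without those 2 mice, and r of at least 0.70 within each group. Values of 1 library share its depth, its RNA and its size factor, so r between genes is a description of these libraries.

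Apoe went with Car2 over all mice (r = 0.71, rho = 0.71, adjusted p = 0.0015 and 0.0024, 0.67 without the 2 mice), but r was -0.27 within OIR p14 mice. With Glul its r was 0.70 and its rho 0.75 (adjusted p = 0.0042 and 0.0024, 0.68 without the 2 mice), and r was 0.12 within OIR p14 mice. Abca8a went against Apoe, with r = -0.52 (permutation p = 0.0152, adjusted p = 0.0685) and rho = -0.59 (permutation p = 0.0054, adjusted p = 0.0237). Within the groups that r was -0.75, -0.01, -0.75 and -0.61, and it was -0.47 without the 2 mice farthest from the median. Of the 45 pairs, 9 had an adjusted p under 0.05 by r, all of them positive. By rho there were 14, of which 2 were negative, Abca8a with Apoe and Abca8a with Car2 (rho = -0.53, adjusted p = 0.0398), and 1 held Kcnj10, with Glul (rho = 0.52, adjusted p = 0.0498). For Glul and Kcnj10, r was 0.51 (adjusted p = 0.0737) and 0.36 without the 2 mice farthest from the median. Within the groups that r was 0.61, 0.59, -0.11 and 0.62. Aqp4 and Slc1a3 were in none of the pairs called by either measure.

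**Figure D5:**
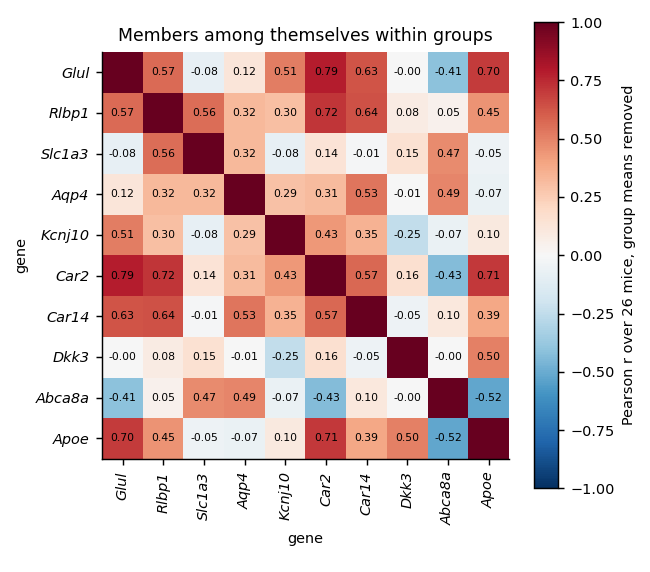
Pearson r between members over 26 mice after removal of the group means (colour scale from -1 to 1). Glul, Rlbp1, Car2 and Car14 form a block of positive values between 0.57 and 0.79, and Abca8a has -0.52 with Apoe.

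Likeness was sought among 12910 other genes whose mean reached 100 normalized reads. By Pearson r over 26 mice, the 5 whose values within groups were most like the mean of the 10 standardised members were Septin4 (r = 0.84), Spc25 (0.84), Rit2 (0.82), Adi1 (0.80) and 4933416I08Rik (0.80). Septin4, Spc25 and Rit2 were also lower in OIR mice at both ages, Septin4 with log2 fold changes of -0.43 (adjusted p = 0.0029) and -0.34 (adjusted p = 0.0065) and Rit2 with -0.48 (adjusted p = 0.0035) and -0.61 (adjusted p = 2.85e-05). Adi1 and 4933416I08Rik were not called at either age.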

How the data were processed

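The authors mapped single reads from an unstranded kit with STAR 2.7.8a to a mouse genome with Gencode M28 annotation, counted them on genes with featureCounts 2.0.1 and deposited them as normalized reads (a signal in which each mouse's counts are divided by its DESeq2 1.34 size factor). The authors' columns of group means, fold changes and p-values were not used. Multiplying by 1 factor per mouse turned 100% of the values into whole reads (tolerance 1e-06 of the count, or of 1 for smaller counts). PCR copies were not removed, and 26 of 27 mice were used.

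Limma 3.58.1 (R 4.3.3, eBayes with a trend) was fitted to the 4 groups at once on log2(normalized reads + 1) for genes with a mean of at least 1. Single members were also tested by an exact two-sided permutation test (Python 3.11.15, numpy 2.4.6, pandas 2.3.3, scipy 1.17.1, figures with matplotlib 3.10.9). The fit was also run on simulated counts with the same spread setting for all genes and independent mice. Its outcome is not reported here, and such a run does not cover litters or a spread that differs between genes. Alternatives were a pseudocount of 0.1, other minimum means, S4 kept in, fits of only the groups compared, a replicate block, other scalings, edgeR 4.0.16 and DESeq2 1.42.0 on recovered reads, an adjusted p under 0.01, covariates and leaving out each mouse.

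Members and lists were chosen with earlier results of these data known. All 10 members are named. Of each other list, up to 3 genes per direction and age were named, those with the smallest adjusted p among called genes averaging 10 or more normalized reads, and some further genes were named after their values were seen. Exon lengths and promoters were read on GRCm38, and the sequence of Aqp4 was not used here. Some genes of the related lists are not reported here and are left out of the counts.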

Additional observations from a re-analysis of the deposited data

Results flagged for a closer look

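The lowest Rlbp1 value among nOIR p17 mice, 16454 normalized reads in replicate 1, stood apart from the other 5 controls. It was the 1 such value in 40 groups of member values, where chance gives about 1 in 20.

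By limma's test of the difference, 2 related genes had an effect of OIR that differed between the ages, markers of other cells aside. Of those markers, 5 of 5 pericyte and 5 of 6 endothelial markers had a more positive effect at p17. So did 3 of 7 microglia and macrophage and 2 of 5 red cell markers. For Aqp1 the effect at p17 exceeded that at p14 by 0.98 on the log2 scale (SE 0.25, adjusted p = 0.0380), and 22 of 39 alternatives lost that call. For Apod it did so by 1.64 (SE 0.30, adjusted p = 0.0020), and the call was lost in 1 alternative, the microglia markers as a covariate. At p14 its mean was 287 ± 65.8 normalized reads in controls (SD, n = 6) and 131 ± 45.4 under OIR (SD, n = 6). At p17 it was 165 ± 16.4 (SD, n = 6) and 244 ± 82.7 (SD, n = 8).

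The nOIR p14 mouse S4, which entered only the alternative fits with S4 included, had 13480 normalized reads of Slc1a3 and 5867 of Abca8a. Both values were above those of the other 6 nOIR p14 mice. Its values of Apoe, 18190, and Car14, 2810, were below those of the other 6.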

How the results depend on the processing

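At p14 the count of lower members was between 4, at an adjusted p under 0.01, and 7, with the microglia markers as a covariate or without nOIR p14 replicate 1 (Car2 added). At p17 it was 6 in the fit on the groups compared, after scaling to the same total and at an adjusted p under 0.01, and 5 after quantile normalization. Leaving out single mice at p17 gave 6 or 7, with Glul lost without nOIR p17 replicate 2, 3 or 5 or OIR p17 replicate 1, 2 or 5. It fell to 0 at p17 with the microglia markers as a covariate, an alternative chosen after seeing the data, whose sums do not overlap between the p17 groups, while the members' median log2 fold change went from -0.46 to -0.93. At p17, 1 member (Slc1a3) was called higher after scaling to the same total, after quantile normalization and when single mice were left out (0 to 1). Scaling to the same total changed the whole table from 862 higher and 790 lower genes to 1019 and 609 at p14, and from 2005 and 1390 to 2406 and 964 at p17. Between nOIR p17 and nOIR p14 mice, 1 member (Slc1a3) was called lower with S4 included, in the fit on the groups compared, after scaling to the same total, after quantile normalization and by DESeq2, and leaving out single mice gave 0 to 1. Between OIR p17 and OIR p14 mice, 1 member (Slc1a3) was called lower after scaling to the same total, and leaving out single mice gave 0 to 1. The 2 higher members there became 1 in the fit on the groups compared, with Cryaa as a covariate and at an adjusted p under 0.01, became 0 with the microglia markers as a covariate, and were 1 to 3 when single mice were left out. The difference of the effects at both ages gave 1 member (Apoe) instead of 0 with a minimum mean of 10, after scaling to the same total, after quantile normalization, with RPE markers or Cryaa as a covariate, by edgeR and by DESeq2, and 0 to 1 when single mice were left out. The single mice whose removal changed the counts of higher members at p17, of members between the ages and of differing effects were OIR p14 replicate 3 and OIR p17 replicate 4 for Slc1a3, OIR p14 replicates 4 and 6 for Glul, OIR p14 replicate 1, without which Aqp4 was called higher as well (0.33, adjusted p = 0.0415), and nOIR p14 replicate 1, nOIR p17 replicate 3 and OIR p17 replicates 1 and 2 for the difference in Apoe. The cause was not tested. No call of a member changed sign. Of 54 calls of related genes, not counting markers of other cells, 25 were kept under every alternative. At p17, 2 turned their sign with the microglia markers as a covariate, namely Glud1 (0.049) and Lcn2 (-0.30).

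Deviations of same-numbered mice from their group means had a median r near 0 (34 pairs, r from -0.23 to 0.33, median 0.01). Other pairs of mice from different groups had a similar range (218 pairs, r from -0.35 to 0.31, median -0.003). An r over 0.1 was seen in 7 of the 34 and in 39 of the 218 pairs. Whether equal numbers mark mice of a shared origin is not given, and this check cannot decide it. The replicate block left 6 lower members at p14 and 7 at p17, and 1 higher instead of 2 between OIR p17 and OIR p14 mice. The litter of each mouse was not modelled, and with 6 to 8 mice per group the width of the members' 95% intervals limits what could be called.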
